A study of Homo sapiens
Mus musculus with 16 samples.

Results

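Cornification is the last step of squamous differentiation, in which keratinocytes of skin and other stratified epithelia exchange the cell membrane for a cross-linked protein envelope coated with lipid. The 41 genes described here encode proteins of that envelope, the enzymes that cross-link it, desmosomal proteins that hold its cells together, and late regulators of the programme. They were taken by symbol from the 23368 genes of the human expression table. All 41 were listed, and 40 passed a filter on low expression (normalized value 1 or more in 4 or more libraries). The exception was LCE3A, a late cornified envelope gene, which had no read in any of the 16 libraries.

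The tumours were xenografts of ScaBER, an established human bladder carcinoma cell line, grown in Hsd:Athymic Nude-Foxn1nu mice, which lack a thymus. For 14 days they received vehicle (methylcellulose with Tween80), nintedanib at 40 mg/kg, alpelisib at 25 mg/kg, or both drugs at those doses (combination), with 4 libraries in each of the 4 groups. Nintedanib blocks receptor kinases of the FGF, PDGF and VEGF families, whereas alpelisib (BYL719) blocks the alpha isoform of PI3K. The question given by the submitters is how the drugs act in synergy, and they mapped reads to the human and to the mouse genome separately so that tumour and host could be told apart. All tumours come from 1 cell line, although a source label reads PDX, and the labels do not say whether each library is from its own mouse, so the tests measure the spread between these libraries. In bulk tumour RNA, fewer cells of a type and less RNA per cell cannot be told apart.

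In normal stratified epithelium, basal cells attached to the matrix express KRT5 and KRT14, and cells that leave this layer build desmosomes rich in DSG1 and DSC1 and then make envelope precursors such as involucrin and loricrin. Transglutaminases join these precursors, and lipoxygenases process the lipids bound to the envelope. The inner lining of a normal bladder does not cornify, whereas squamous bladder carcinoma carries parts of this programme.

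Human reads per library ran from 8303617 to 18568119. Squamous identity markers were present in all 16 libraries, with KRT5 at normalized values from 54176 to 105719 and TP63 from 596 to 1215. Of the umbrella cell markers, UPK3A was listed at 0 in 15 libraries and UPK2 in 1. The others had reads in every library at lower values. UPK1A ran from 12.6 to 50.9, UPK1B from 22.0 to 82.8, UPK3B from 6.74 to 89.9 and KRT20 from 0.796 to 7.95. The share of human reads taken by all members was 0.384% ± 0.0218, 0.480% ± 0.0629, 0.470% ± 0.0814 and 0.425% ± 0.0807 (SD, n = 4 each) under vehicle, nintedanib, alpelisib and combination. One library stood apart in its host tissue. Alpelisib 1 had a mouse skin epithelium score of 5.06 (mean log2 of 15 mouse markers, vehicle mean 0), against -0.48 to 1.503 in all other libraries, so the alpelisib counts and several alpelisib changes are also given without it.

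**Figure D1:**
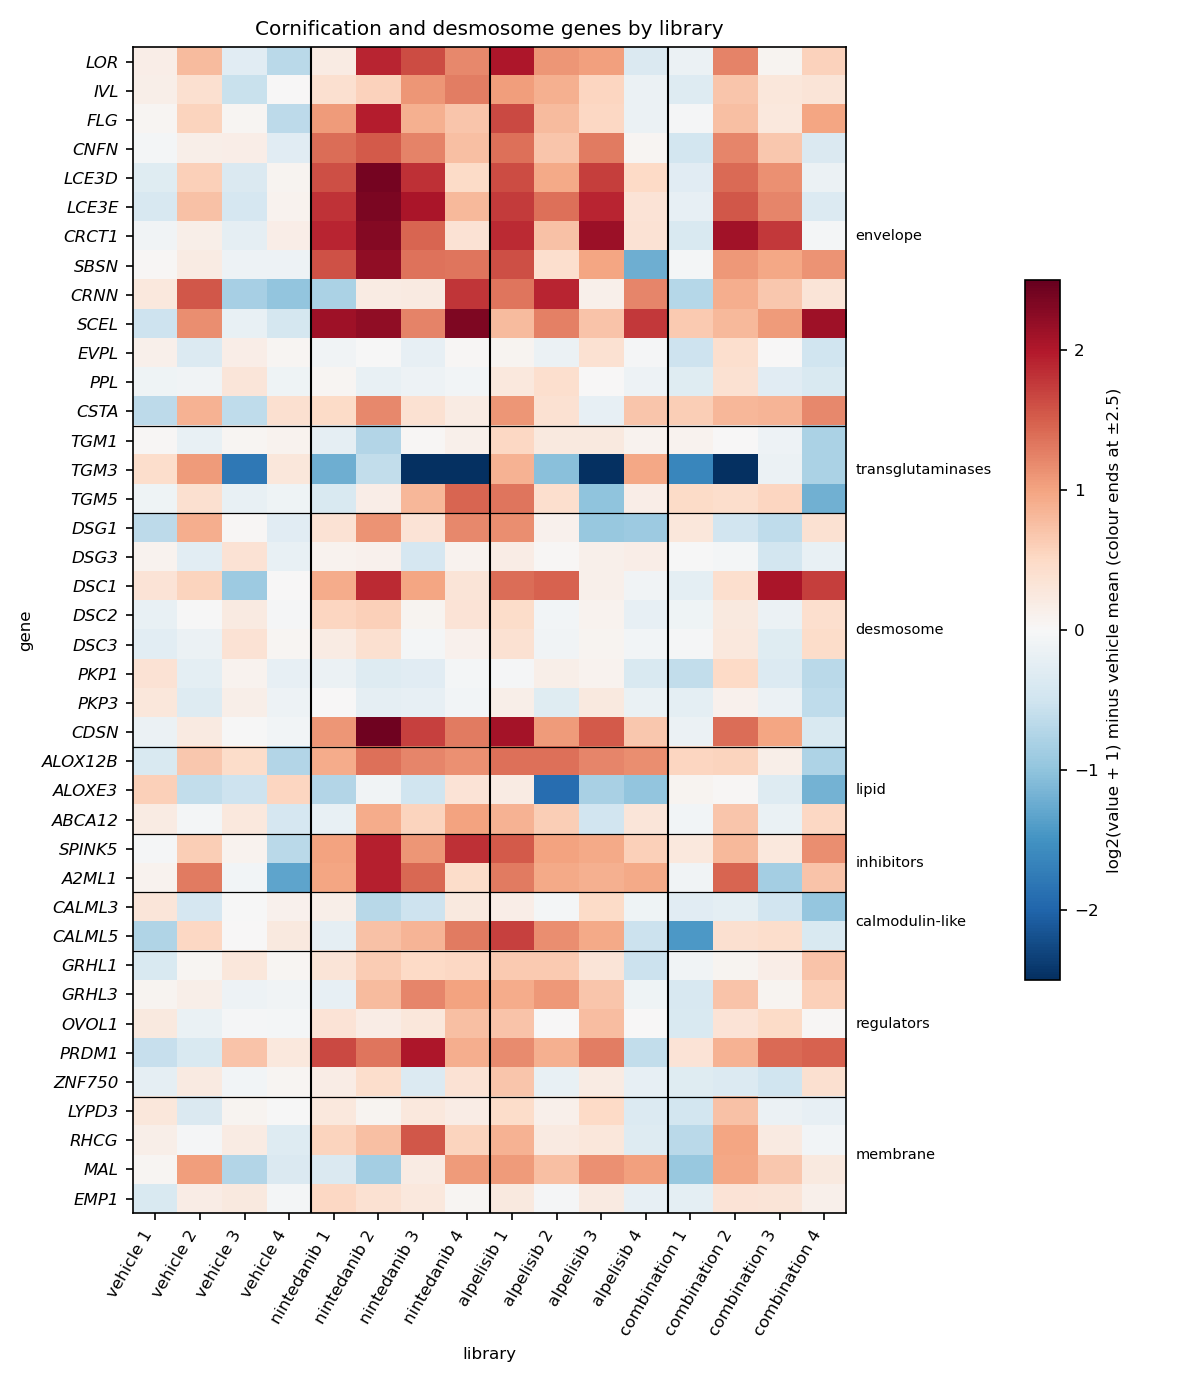
Colour gives log2(normalized value + 1) of each of the 40 members tested (rows, grouped by role) minus the vehicle mean, in each of the 16 libraries (columns). Most envelope genes and CDSN are red in the nintedanib libraries and in alpelisib 1 to 3, with LCE3D, LCE3E and CRCT1 paler in nintedanib 4. EVPL, PPL, DSG3, PKP1 and PKP3 stay pale in every group.

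Most envelope genes stood higher with either drug alone than with vehicle, and less so with both. Relative to vehicle, the median log2 change of the 40 members was 0.57 with nintedanib, 0.42 with alpelisib and 0.17 with the combination, and that of all 17663 genes tested was 0.02, 0.01 and 0.03. Above 0 lay 31, 35 and 27 of the 40, and 51.7%, 51% and 53.5% of all genes. These changes are on the scale of log2(value + 1), and each is a difference of group means from 1 limma model over all 16 libraries. No single member passed the threshold of 0.05 on the p-value adjusted by Benjamini-Hochberg over all genes in any of the 8 comparisons made (limma), and among all genes the share called was 0% in each comparison with vehicle. The smallest adjusted p of a member was 0.124 with nintedanib (SPINK5), 1 with alpelisib (CDSN) and 0.508 with the combination (SCEL).

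At an unadjusted p under 0.05, 16 members were higher and 1 was lower with nintedanib, when 6.88% and 4.7% of all genes were. With alpelisib 13 were higher and 0 lower, beside 1.69% and 0.793% of all genes. With the combination 4 were higher and 1 lower, beside 4.47% and 3.69%. The count for alpelisib was 7 without alpelisib 1, and its median was then 0.23. It was 8 without vehicle 4. That for the combination was 7 without combination 1 and 2 without vehicle 1, and its median was 0.041 without combination 2 and 0.33 without combination 1. edgeR and limma-voom on recovered reads also called 0 members in these 3 comparisons. DESeq2 called 8 with nintedanib and 0 with alpelisib or the combination. A limma model of vehicle and nintedanib alone called 10, and leaving out vehicle 2 gave 2 calls, SCEL (adjusted p = 0.0304, limma) and SPINK5 (adjusted p = 0.0322, limma).

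**Figure D2:**
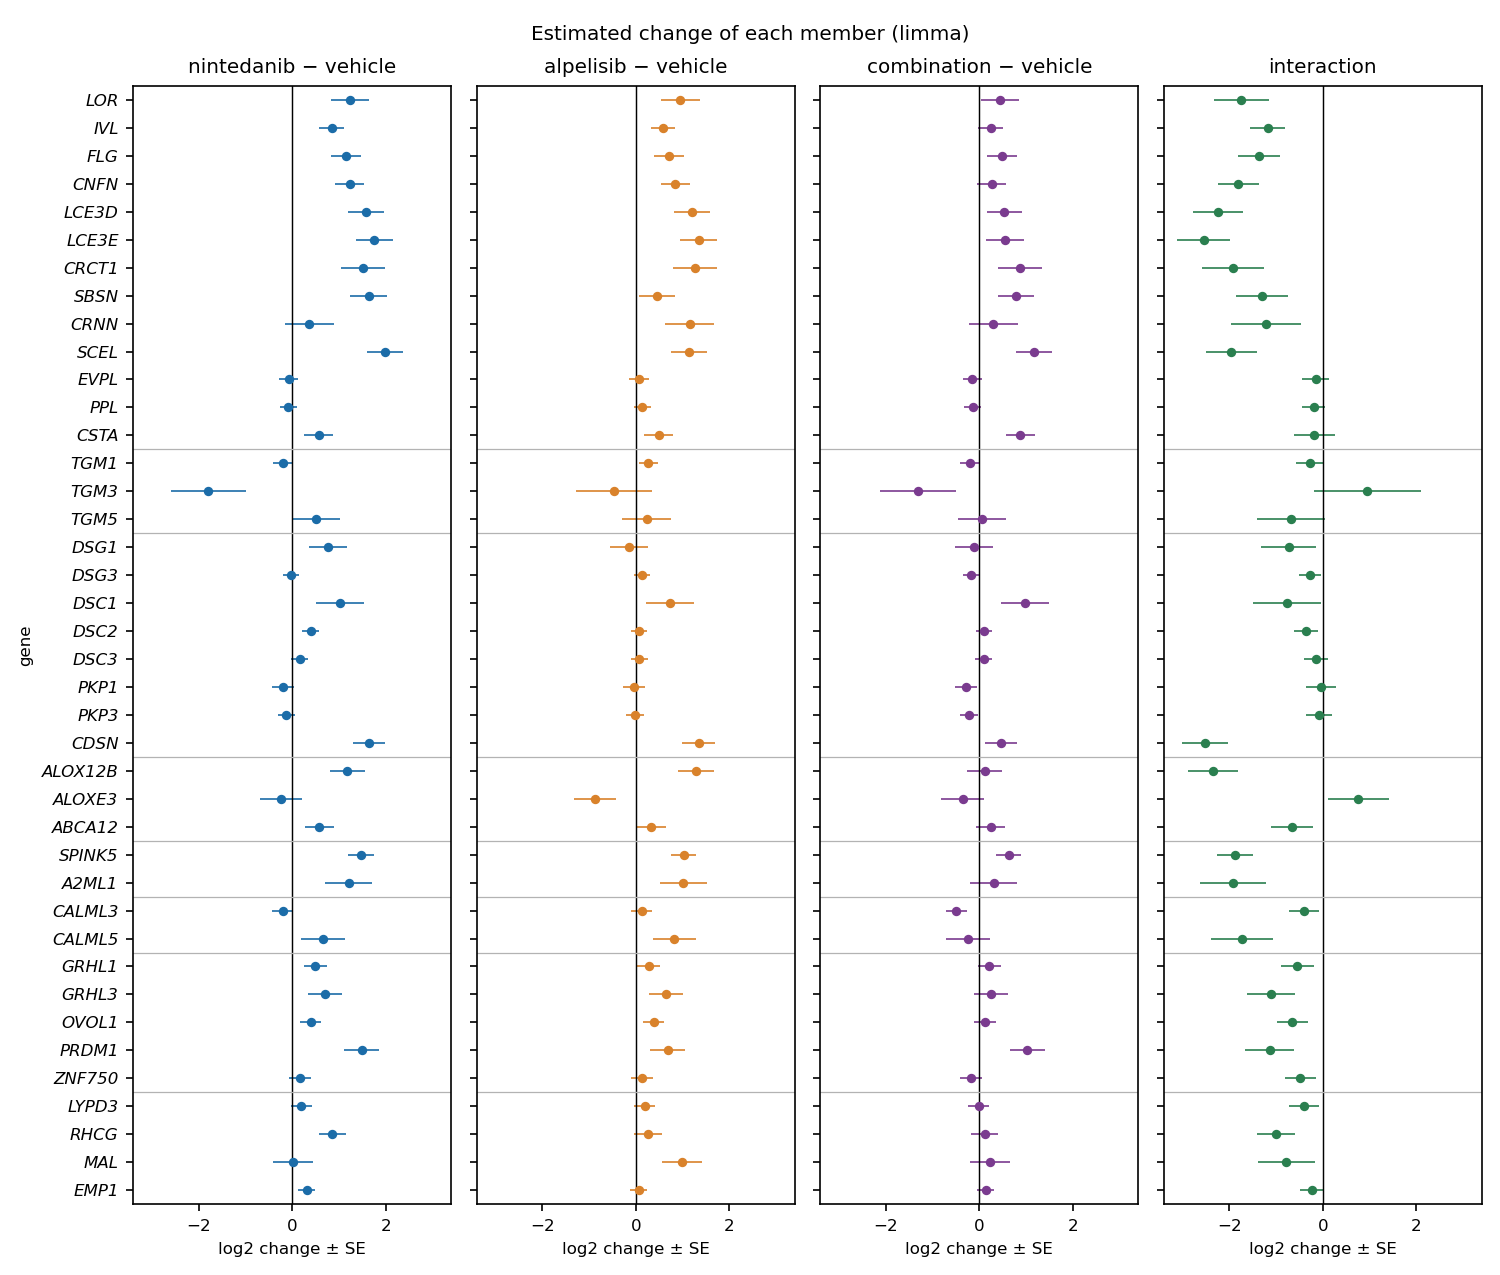
Each point is the limma log2 change of 1 member with its SE, for the 3 comparisons with vehicle and for the interaction (the combination change less the sum of the single-drug changes), with members in order of role. Most envelope genes lie right of 0 for the single drugs and left of 0 for the interaction, and EVPL, PPL, DSG3, PKP1 and PKP3 lie near 0 throughout.

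Among the envelope genes, SCEL had the largest change with nintedanib. It encodes sciellin, a precursor of the envelope. Its normalized values were 26.7, 88.3, 34.0 and 28.3 in vehicle 1 to 4, 171, 185, 93.6 and 200 with nintedanib, 68.4, 95.1, 64.6 and 135 with alpelisib, and 61.8, 69.3, 82.7 and 172 with the combination. Every nintedanib library lay above every vehicle library, and vehicle 2 reached into the range of the other 2 groups. The log2 change was 1.98 (SE 0.39, adjusted p = 0.131, limma) with nintedanib, 1.14 (SE 0.39) with alpelisib and 1.17 (SE 0.39) with the combination.

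LCE3D and LCE3E are neighbouring late cornified envelope genes of the epidermal differentiation complex. They belong to a family of close copies between which short reads can be divided wrongly, so their separate values are uncertain. LCE3E stood at 541, 1189, 539 and 764 in vehicle 1 to 4, 2511, 3676, 2961 and 1262 with nintedanib, 2417, 1868, 2688 and 909 with alpelisib, and 624, 2095, 1670 and 564 with the combination. LCE3D gave 567, 1069, 551 and 734 with vehicle, 2149, 3707, 2509 and 981 with nintedanib, 2180, 1352, 2335 and 989 with alpelisib, and 580, 1870, 1564 and 640 with the combination. For both genes, nintedanib 4 and alpelisib 4 were the lowest of their groups, and combination 1 and 4 fell within the vehicle range. The nintedanib change was 1.75 (SE 0.40, adjusted p = 0.171, limma) for LCE3E and 1.58 (SE 0.38, adjusted p = 0.205, limma) for LCE3D, and the combination gave 0.55 (SE 0.40) and 0.54 (SE 0.38). Without combination 2 these were 0.22 and 0.25, without combination 4 LCE3E stood at 0.85, and without combination 1 LCE3D stood at 0.81.

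SBSN encodes suprabasin, a secreted protein of suprabasal keratinocytes. Its values were 430, 484, 385 and 383 in vehicle 1 to 4, 1267, 1945, 1079 and 1060 with nintedanib, 1288, 563, 835 and 180 with alpelisib, and 403, 886, 824 and 918 with the combination. All nintedanib libraries exceeded all combination libraries as well as all vehicle libraries, and alpelisib 4 was the lowest of the 16. The changes were 1.63 (SE 0.39, adjusted p = 0.205, limma) with nintedanib, 0.46 (SE 0.39) with alpelisib and 0.78 (SE 0.39) with the combination. Without alpelisib 1 the alpelisib change was 0.071, and without alpelisib 4 the nintedanib change had an adjusted p of 0.0430 (limma).

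CNFN, which encodes the envelope protein cornifelin, ran along with these. It stood at 662, 760, 769 and 560 with vehicle, 1800, 1970, 1614 and 1149 with nintedanib, 1763, 1097, 1675 and 703 with alpelisib, and 497, 1585, 1093 and 529 with the combination. Groups given nintedanib and vehicle did not overlap, whereas alpelisib 4, combination 1 and combination 4 lay in or below the vehicle range. Its changes were 1.23 (SE 0.31, adjusted p = 0.231, limma), 0.85 (SE 0.31) and 0.27 (SE 0.31).

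The classical envelope precursors and CRCT1 are given by their group means or changes. Loricrin (LOR), the main mass of the epidermal envelope, had group means of 539.7 ± 243, 1291 ± 561, 1133 ± 676 and 731 ± 332 (SD, n = 4 each) under vehicle, nintedanib, alpelisib and combination. Alpelisib 1 had 2033, and the other alpelisib libraries had 1079, 1027 and 393. Involucrin (IVL), an early scaffold of the envelope, had 585 ± 151, 1051 ± 296, 891 ± 289.6 and 695 ± 194 (SD, n = 4 each) in that order. Filaggrin (FLG), which bundles keratin filaments, had log2 changes of 1.15 (SE 0.32), 0.70 (SE 0.32) and 0.49 (SE 0.32). CRCT1, a small gene of the epidermal differentiation complex, had 1.51 (SE 0.47), 1.28 (SE 0.47) and 0.86 (SE 0.47), and its combination mean of 1350.2 ± 1009 (SD, n = 4) spanned libraries at 439 and 2463. For IVL, FLG and CRCT1 the nintedanib and vehicle libraries did not overlap, and for LOR they did. The margin for IVL was narrow, with a lowest nintedanib value of 754.1 and a highest vehicle value of 750.9.

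The remaining envelope members did not follow these. The plakins envoplakin (EVPL) and periplakin (PPL), which link the envelope to desmosomes and keratin, had nintedanib changes of -0.07 (95% interval -0.49 to 0.35) and -0.09 (-0.45 to 0.28). CRNN, the gene of cornulin, stood at 1.15 (SE 0.52) with alpelisib and at 0.36 and 0.30 with nintedanib and the combination. CSTA encodes cystatin A, a cysteine protease inhibitor built into the envelope. It stood at 3546, 10236, 3594 and 7370 with vehicle, 7785, 12819, 7229 and 6403 with nintedanib, 11937, 7232, 4810 and 9046 with alpelisib, and 8481, 9889, 10090 and 12727 with the combination. CSTA was the 1 envelope member of these with its highest group mean under the combination (log2 change 0.87, SE 0.31, adjusted p = 0.528, limma), and vehicle 2 overlapped that group.

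Of the 3 transglutaminases, 1 had a nintedanib change above 0 and 2 an alpelisib change above 0. TGM1, the membrane-anchored cross-linking enzyme of keratinocytes, had changes of -0.20 (95% interval -0.64 to 0.23) with nintedanib, 0.27 (-0.17 to 0.71) with alpelisib and -0.21 (-0.64 to 0.23) with the combination. TGM3 was near the detection limit, with means of 6.89 ± 4.70 (SD, n = 4) with vehicle and 1.23 ± 1.54 (SD, n = 4) with nintedanib, and was the 1 member lower with nintedanib at an unadjusted p under 0.05. TGM5 stood at 18.7 ± 3.94 (SD, n = 4) with vehicle and between 21.5 and 30.05 on average in the drug groups.

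Desmosomal genes were divided. CDSN encodes corneodesmosin, the extracellular protein that converts desmosomes to corneodesmosomes. It stood at 221, 288, 242 and 234 in vehicle 1 to 4, 531, 1328, 806 and 608 with nintedanib, 1039, 515, 714 and 392 with alpelisib, and 221, 646, 487 and 187 with the combination. All libraries given 1 drug lay above all vehicle libraries, and the combination held 2 libraries above and 2 at or below the lowest vehicle value. Its changes were 1.64 (SE 0.34, adjusted p = 0.131, limma) with nintedanib, 1.34 (SE 0.34) with alpelisib, 1.09 without alpelisib 1, and 0.46 (SE 0.34) with the combination. That last change was 0.15 without combination 2 and 0.74 without combination 4.

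The adhesive cadherins and plakophilins of the desmosome did not share 1 pattern. DSG3, a desmoglein of lower layers, had means of 2410.1 ± 480.2, 2351 ± 383, 2597 ± 126 and 2115 ± 284 (SD, n = 4 each) under vehicle, nintedanib, alpelisib and combination. The nintedanib change was -0.03 for DSG3 (95% interval -0.38 to 0.32), 0.16 for the desmocollin DSC3 (-0.22 to 0.54), -0.20 for the plakophilin PKP1 (-0.68 to 0.27) and -0.12 for PKP3 (-0.52 to 0.27). For these 4 genes the intervals therefore leave out a doubling, and they do not show that the levels were equal. The desmocollin DSC2 stood at 0.39 (SE 0.18) with nintedanib and 0.07 (SE 0.18) with alpelisib. The upper-layer cadherins DSG1 and DSC1 were low and spread widely, with nintedanib changes of 0.76 (SE 0.41) and 1.03 (SE 0.52). Under vehicle, nintedanib, alpelisib and combination, DSG1 had means of 108 ± 54.6, 176 ± 56.6, 109 ± 81.2 and 96.2 ± 33.8 (SD, n = 4 each). Those of DSC1 were 21.6 ± 8.61, 45.5 ± 21.8, 38.3 ± 20.6 and 49.6 ± 33.0 (SD, n = 4 each), highest with the combination.

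**Figure D3:**
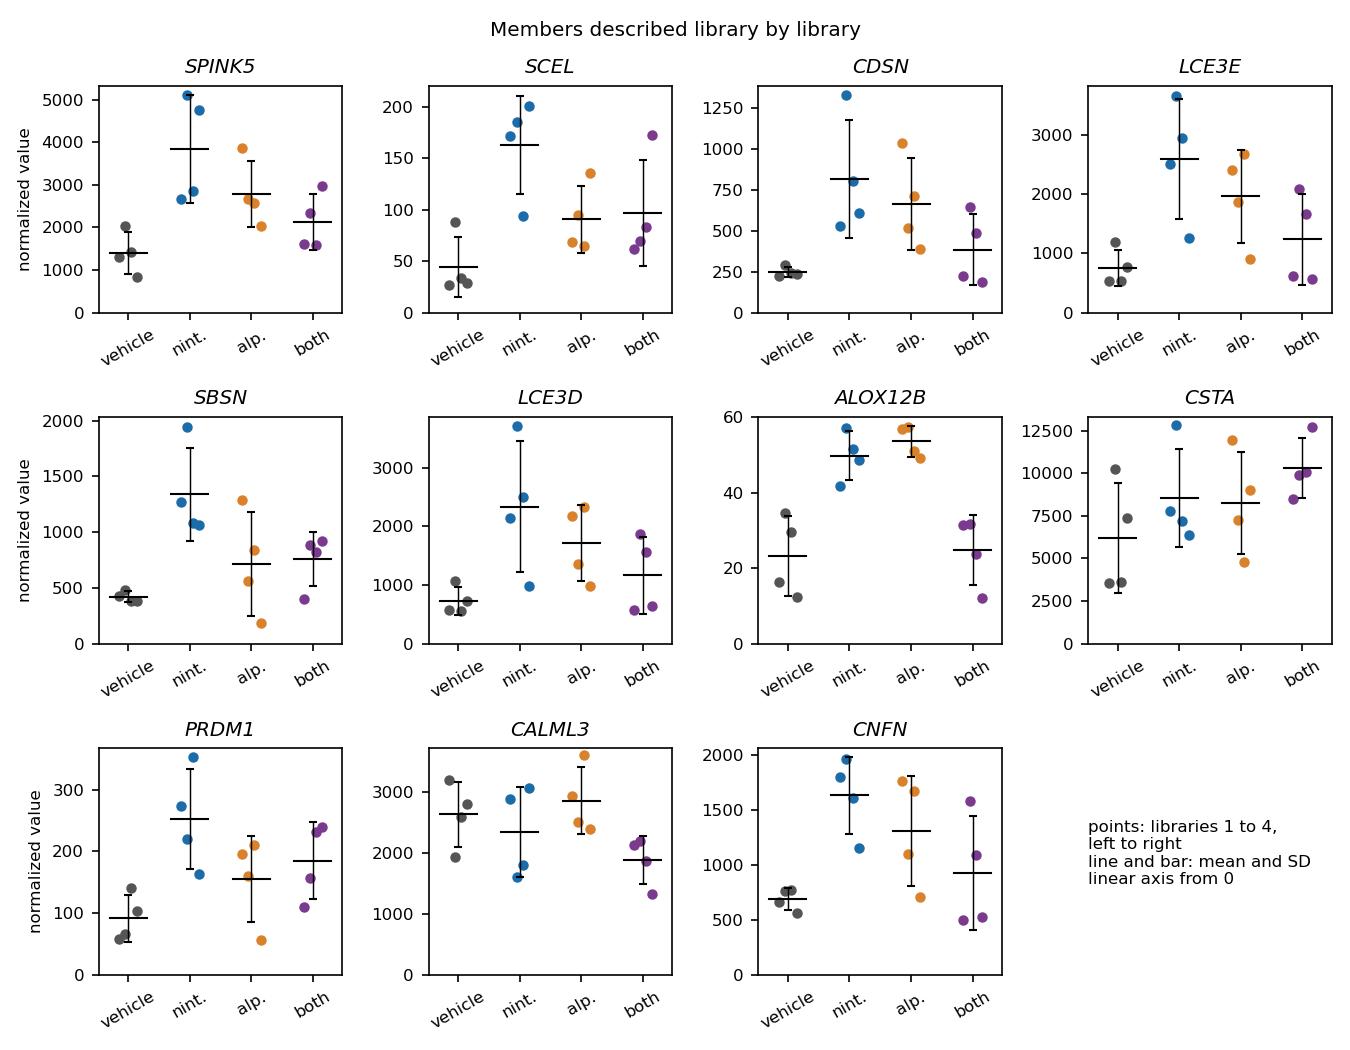
Normalized values of 11 members in each library (points, libraries 1 to 4 from left to right), with the mean and SD of each group of 4, on linear axes from 0. In the panels of CDSN, LCE3D, LCE3E and CNFN the combination group holds 2 high libraries (2 and 3) and 2 at the vehicle level (1 and 4), and in that of ALOX12B the single-drug groups lie above both others.

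The barrier lipid gene ALOX12B had little spread within the single-drug groups. It encodes a skin lipoxygenase that oxidizes linoleate in ceramides. Its values were 16.2, 34.6, 29.7 and 12.4 with vehicle, 41.8, 57.3, 51.6 and 48.8 with nintedanib, 57.0, 57.5, 51.1 and 49.2 with alpelisib, and 31.4, 31.8, 23.9 and 12.1 with the combination. Both single-drug groups lay wholly above the vehicle group and wholly above the combination group. The change from vehicle was 1.17 (SE 0.38, adjusted p = 0.291, limma) with nintedanib, 1.28 (SE 0.38) with alpelisib and 0.11 (SE 0.38) with the combination. ALOXE3, which acts on the product of ALOX12B, did not share this pattern, with changes of -0.24 (SE 0.46), -0.87 (SE 0.46) and -0.35 (SE 0.46). ABCA12, the lipid transporter of lamellar granules, stood at 0.58 (SE 0.32), 0.32 (SE 0.32) and 0.24 (SE 0.32).

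The protease inhibitor SPINK5, known as LEKTI, holds epidermal kallikreins in check. It stood at 1301, 2044, 1421 and 829 in vehicle 1 to 4, 2658, 5107, 2862 and 4747 with nintedanib, 3860, 2675, 2577 and 2022 with alpelisib, and 1604, 2343, 1593 and 2963 with the combination. Nintedanib and vehicle did not overlap, and alpelisib overlapped vehicle by 1 library. The combination mean lay between those of vehicle and nintedanib. Combination 1 and 3 were within the vehicle range, and combination 4 exceeded nintedanib 1 and 3. Its changes were 1.47 (SE 0.27, adjusted p = 0.124, limma), 1.03 (SE 0.27) and 0.63 (SE 0.27), and the alpelisib change was 0.85 without alpelisib 1. The broad protease inhibitor gene A2ML1 gave 1.21 (SE 0.50), 1.02 (SE 0.50) and 0.31 (SE 0.50).

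The 2 calmodulin-like genes of the list differed. CALML3 stood at 3203, 1934, 2589 and 2804 with vehicle, 2879, 1603, 1800 and 3056 with nintedanib, 2925, 2509, 3607 and 2388 with alpelisib, and 2125, 2200, 1865 and 1330 with the combination. Each combination library was below each alpelisib library, and the combination change from vehicle was -0.49 (SE 0.22, adjusted p = 0.610, limma). CALML5, whose product binds transglutaminase 3, had means of 55.0 ± 18.7, 89.0 ± 35.0, 108 ± 57.0 and 49.9 ± 25.2 (SD, n = 4 each) across those groups.

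Among the transcription factors, PRDM1 (BLIMP1), a repressor that acts late in keratinocyte differentiation, had the largest change. Its values were 57.2, 65.9, 141 and 103 with vehicle, 274, 220, 353 and 163 with nintedanib, 195, 161, 210 and 55.5 with alpelisib, and 110, 158, 232 and 240 with the combination. All nintedanib libraries exceeded all vehicle libraries, and alpelisib 4 was the lowest of the 16. The changes were 1.49 (SE 0.38, adjusted p = 0.231, limma), 0.68 (SE 0.38) and 1.03 (SE 0.38). Mouse Prdm1 had more reads than human PRDM1, a median of 276 against 160 over the libraries, and the part of host reads in the human value was not tested. With nintedanib, the grainyhead factors GRHL1 and GRHL3 stood at 0.49 (SE 0.25) and 0.71 (SE 0.36), the zinc finger factor OVOL1 at 0.39 (SE 0.23), and ZNF750, an activator of late differentiation genes, at 0.17 (SE 0.24).

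The last members, membrane proteins of upper squamous layers, did not share 1 pattern. The ammonia transporter RHCG had 449 ± 69.8 (SD, n = 4) with vehicle and 840.1 ± 309.9 (SD, n = 4) with nintedanib, without overlap, and its alpelisib and combination means were 555 ± 188 and 526 ± 256 (SD, n = 4 each). MAL, a raft protein of apical transport, stood at 0.99 (SE 0.43) with alpelisib and 0.02 (SE 0.43) with nintedanib. LYPD3 and EMP1 had nintedanib changes of 0.20 (SE 0.22) and 0.31 (SE 0.18).

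Counted by groups that did not overlap, 13 of the 40 members were higher in every nintedanib library than in every vehicle library, beside 4.86% of all genes. They were IVL (by a narrow margin, 754.1 against 750.9), FLG, CNFN, LCE3E, CRCT1, SBSN, SCEL, CDSN, ALOX12B, SPINK5, GRHL1, PRDM1 and RHCG. With alpelisib 3 did so (CRCT1, CDSN and ALOX12B), beside 1.23% of all genes. With the combination 0 did, beside 1.79%.

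The interaction asks whether the combination departed from the sum of the separate drug effects. It lay below 0 for 38 and above 0 for 2 of the 40 members, beside 49.7% of all genes above 0. The median was -0.75 over the members and -0.0037 over all genes. At an unadjusted p under 0.05, 17 members were lower and 0 higher, beside 3.72% and 2.51% of all genes. By adjusted p, 0 members and 0% of all genes passed (limma), edgeR and limma-voom gave 0 members, and DESeq2 gave 3 (CDSN, SPINK5 and ALOX12B). The count at an unadjusted p was 13 without alpelisib 1, and the median was then -0.54. Without combination 2, 3 members were called by limma, namely CDSN (adjusted p = 0.0440), CNFN (adjusted p = 0.0465) and LCE3E (adjusted p = 0.0489).

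The interaction was largest for LCE3E (-2.54, SE 0.57, adjusted p = 0.357, limma), CDSN (-2.52, SE 0.49, adjusted p = 0.205, limma), ALOX12B (-2.34, SE 0.53) and LCE3D (-2.24, SE 0.54). SCEL stood at -1.95 (SE 0.55), SPINK5 at -1.87 (SE 0.38, adjusted p = 0.205, limma) and CNFN at -1.81 (SE 0.44). The 17 members were LOR, IVL, FLG, CNFN, LCE3D, LCE3E, CRCT1, SBSN, SCEL, CDSN, ALOX12B, SPINK5, A2ML1, CALML5, GRHL3, PRDM1 and RHCG. The desmosomal genes other than CDSN were not among them. Those nearest 0 were PKP1 at -0.04 (SE 0.32), PKP3 at -0.09 (SE 0.27), DSC3 at -0.14 (SE 0.26) and DSG3 at -0.27 (SE 0.24). DSC2, DSG1 and DSC1 lay further below 0. Over the 8 desmosomal members, CDSN included, the median was -0.32 and 0 lay above 0. TGM3 and ALOXE3 were the 2 above 0, at 0.95 (SE 1.14) and 0.76 (SE 0.64).

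Set against the single drugs, most members had lower means in the combination. Against nintedanib, 37 of 40 members were below 0 (median -0.34), beside 50.8% of all genes above 0, and 11 were lower and 0 higher at an unadjusted p under 0.05, beside 5.24% and 4.03% of all genes. The count of 11 was 6 without combination 1, 7 without nintedanib 2, and 5 (with 1 higher) without the muscle-rich libraries nintedanib 4 and combination 1. The 11 were led by CDSN (-1.18, SE 0.34, adjusted p = 0.350, limma), SPINK5 (-0.84, SE 0.27) and CNFN (-0.96, SE 0.31). SBSN and ALOX12B did not overlap between these groups, beside 1.66% of all genes in that direction. Against alpelisib, 30 were below 0 (median -0.27), beside 51.4% of all genes above 0. At an unadjusted p under 0.05, 5 were lower, namely ALOX12B, CALML3, CDSN, CALML5 and TGM1, and 0 higher, beside 3.74% and 4.71% of all genes. Without alpelisib 1 the count was 2 and 26 members were below 0. It was 10 without alpelisib 4, 3 without combination 1, 14 without combination 2, 8 without combination 3 and 3 without combination 4. ALOX12B, CALML3 and DSG3 did not overlap between these groups, beside 1.49% of all genes. ALOX12B stood at -1.17 (SE 0.38, adjusted p = 0.537, limma) in that comparison. The median against alpelisib was -0.17 without combination 1 and -0.42 without combination 2. No member passed by adjusted p in either comparison with limma, edgeR, limma-voom or DESeq2, and limma called 0% and 0.00566% of all genes.

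Averaging the nintedanib effect with and without alpelisib gave its largest positive values for SCEL (1.003, SE 0.27, adjusted p = 0.177, limma), SBSN (0.98, SE 0.27, adjusted p = 0.177, limma) and PRDM1 (0.92, SE 0.27, adjusted p = 0.187, limma). In all, 8 members had an unadjusted p under 0.05, namely these with SPINK5 and CSTA higher (5 in all) and CALML3, TGM1 and TGM3 lower (3 in all), beside 7.2% and 6.96% of all genes. The higher count was 10 without alpelisib 1, 11 without combination 1, 8 without combination 4, 9 without nintedanib 4 and 13 without both muscle-rich libraries. The lower count was 1 without alpelisib 1 and 1 without vehicle 4. Above 0 lay 27 of 40, beside 54.2% of all genes. The alpelisib effect averaged in the same way had a median of 0.0059 over the members, with 21 of 40 above 0, beside 51.5% of all genes. It had 0 members higher and 0 lower at an unadjusted p under 0.05, beside 2.21% and 1.93% of all genes. Both averages gave 0 members by adjusted p with limma and edgeR, and DESeq2 gave 1 for nintedanib.

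**Figure D4:**
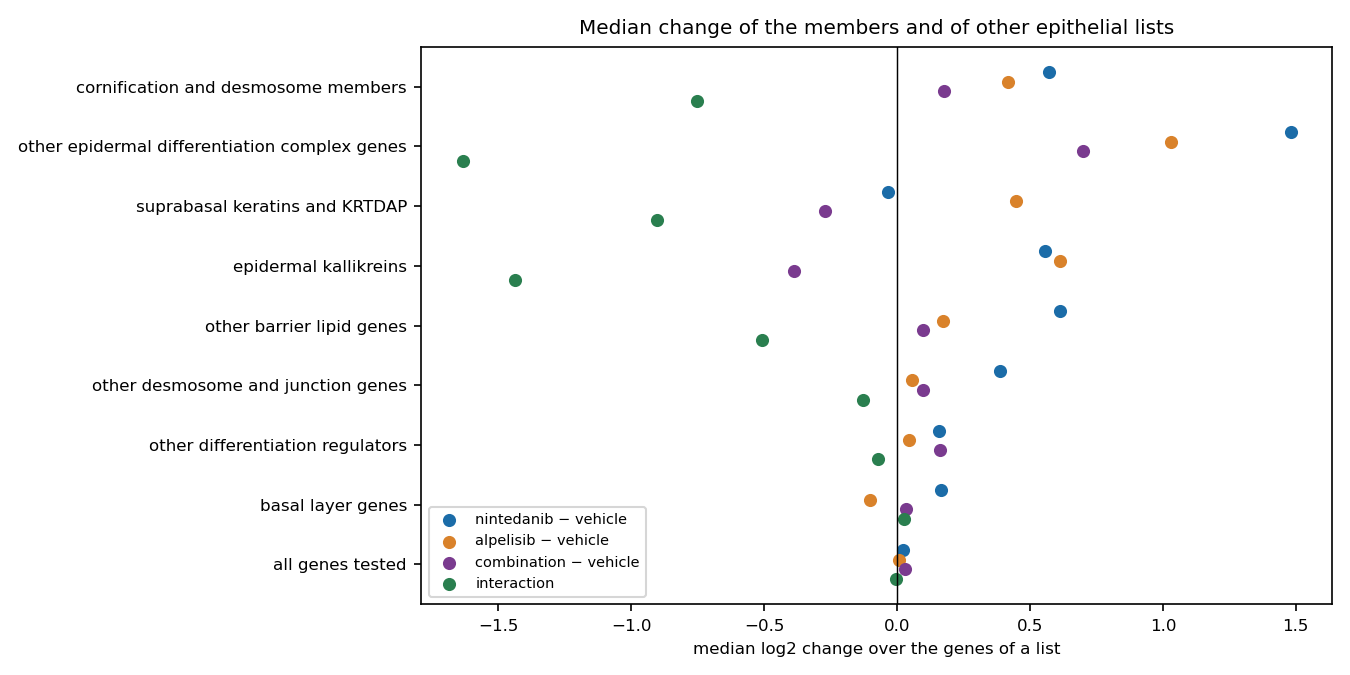
Points give the median log2 change over the tested genes of the members, of 7 further epithelial lists and of all genes, for the 3 comparisons with vehicle and the interaction. The other epidermal differentiation complex genes lie furthest from 0, at 1.48 with nintedanib and -1.63 for the interaction, and basal layer genes lie close to all genes.

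Other lists of the programme were counted in the same way, and the lists were not tested against each other. Over all genes, 6.88%, 1.69% and 4.47% were higher at an unadjusted p under 0.05 with nintedanib, alpelisib and the combination. The shares lower were 4.7%, 0.793% and 3.69%. Of 27 tested genes from the rest of the epidermal differentiation complex, which holds the SPRR, S100 and LCE families, 19 were higher at an unadjusted p under 0.05 with nintedanib, 15 with alpelisib and 10 with the combination, and none was lower. Their medians were 1.48, 1.03 and 0.70. SPRR2G and SPRR2A, small proline-rich envelope precursors that are near copies and may share reads, had nintedanib changes of 1.83 (SE 0.36) and 1.78 (SE 0.38). Of 9 epidermal kallikreins, which cut corneodesmosomes, 4 were higher with nintedanib and 5 with alpelisib, and 4 were lower with the combination. KLK7 stood at 1.57 (SE 0.33) with nintedanib, 0.90 (SE 0.33) with alpelisib and 0.58 (SE 0.33) with the combination, and KLK6 at 1.58 (SE 0.51), 0.89 (SE 0.51) and 0.41 (SE 0.51). Of 15 further barrier lipid genes, 4 were higher with nintedanib, including the cholesterol sulfotransferase SULT2B1 (1.37, SE 0.29) and the fatty acid hydroxylase CYP4F22 (1.20, SE 0.45). Alpelisib gave 1 higher in that list, and the combination gave 0 higher and 1 lower.

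Of 18 further desmosome and junction genes, 5 were higher with nintedanib, 1 with alpelisib and 3 with the combination. Beside these and the next counts stand 6.88%, 1.69% and 4.47% of all genes. Among the 5 were the tight junction gene CLDN1 at 0.48 (SE 0.17) and the catenin CTNND1 at 0.73 (SE 0.29) with nintedanib. Of 18 further regulators, 3, 1 and 2 were higher, including EHF (0.74, SE 0.24) with nintedanib. Suprabasal keratins with KRTDAP had a nintedanib median of -0.03 and 3 of 8 higher, KRT80 at 0.94 (SE 0.26) and KRTDAP at 0.94 (SE 0.31) among them. With alpelisib the median of this list was 0.45, 8 of 8 lay above 0 and 2 were higher. With the combination the median was -0.27, with 1 higher and 1 lower. Of 13 basal layer genes, 1 was higher with nintedanib, namely DST of hemidesmosomes (0.995, SE 0.30), while the integrin ITGB4 stood at -0.28 (SE 0.19), and 0 were higher or lower with alpelisib or the combination. The squamous identity markers gave 0 in each of the 3 comparisons (EPCAM -0.39, SE 0.21, and KRT17 0.40, SE 0.37, with nintedanib), as did the umbrella cell markers (UPK2 0.90, SE 0.67, and UPK3B -0.61, SE 0.51). By adjusted p, limma called no gene of these lists against vehicle or in the interaction, and 1 with the combination against alpelisib, the kallikrein gene KLK10 (-1.14, SE 0.18, adjusted p = 0.0486, limma), named after its value was seen.

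**Figure D5:**
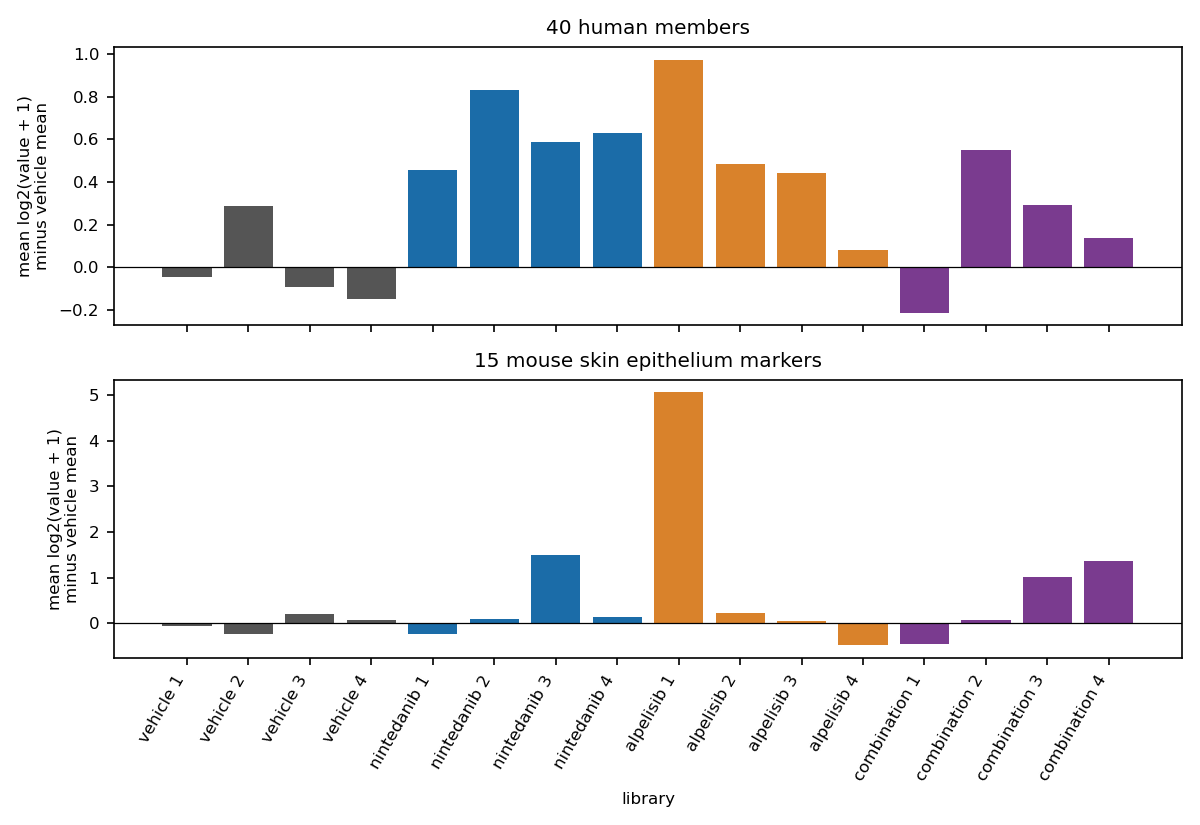
Bars give, for each library, the mean log2(value + 1) over the 40 human members (top) and over 15 mouse skin epithelium markers (bottom), each minus its vehicle mean. The member score is highest in alpelisib 1 (0.97), where the skin score reaches 5.06, and lies between 0.46 and 0.83 in the nintedanib libraries, where the skin score is at most 1.503.

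Mouse skin also makes these transcripts, so the host genes of the same name were read beside them. Of the 41 members 34 had such a mouse gene, and 23 of the 34 had their highest mouse read count in alpelisib 1. Mouse reads were 4.85% of the human and mouse reads of these genes there, and 1.82% to 3.44% in the other libraries. These shares are pooled and so follow the most abundant genes. They leave out FLG, LCE3D, LCE3E, DSG1, A2ML1, CALML5 and ZNF750, which had no mouse gene of the same name. Mouse Lor had 1082 reads in alpelisib 1, beside 2677 of human LOR, and its normalized value was at most 75.7 elsewhere. Mouse Cdsn had 134 reads in alpelisib 1 beside 1368 of human CDSN, Spink5 208 beside 5082, and Scel 29 beside 90. Sbsn had 401 beside 1696 in that library, Crct1 355 beside 2737, and Tgm3 55 beside 14. Mouse Cnfn instead had its most reads in nintedanib 1, at 492 beside 2069 of human CNFN. Its normalized values were 127, 156, 210 and 80.5 in vehicle 1 to 4. With nintedanib they were 459, 432, 191 and 137, with alpelisib 382, 162, 296 and 94.0, and with the combination 71.0, 169, 84.9 and 126. The part of host reads in the human CNFN value was not tested. Mouse Alox12b had at most 6 reads in any library. Without alpelisib 1 the alpelisib changes were 1.25 for SCEL, 1.25 for ALOX12B, 1.21 for LCE3E and 1.05 for LCE3D.

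Stromal and blood genes were read in the human table as well. The summed value of 14 such genes was 495 to 537 with vehicle, 638 to 2019 with nintedanib, 401 to 854 with alpelisib and 659 to 1458 with the combination. The highest sums with nintedanib and with the combination were those of the muscle-rich libraries nintedanib 4 and combination 1. The others ran from 638 to 811 with nintedanib and from 659 to 847 with the combination. CD68 alone stood at 169 to 515 over all libraries (median 334). ADIPOQ was listed at 0 in 12 libraries and CKM in 11, while the muscle myosin gene MYH4 reached 1303. At an unadjusted p under 0.05, 6.88%, 1.69% and 4.47% of all genes were higher with nintedanib, alpelisib and the combination. Of the 11 stromal and blood genes tested, 2 were higher with nintedanib, the proteoglycan gene DCN (1.45, SE 0.46) and the leukocyte gene PTPRC (1.78, SE 0.65). DCN alone was higher with alpelisib (1.44, SE 0.46) and with the combination (1.69, SE 0.46). The part of these genes in the member results was not tested. Without the 2 libraries richest in mouse muscle transcripts (nintedanib 4 and combination 1), the members' median was 0.47 with nintedanib and -0.48 for the interaction, LCE3D was called with nintedanib (1.95, adjusted p = 0.0487, limma), and 8 members were higher with the combination at an unadjusted p under 0.05.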

How the data were processed

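Per the labels' protocols, QuantSeq 3′ mRNA libraries were sequenced on a NextSeq500. TopHat and the builds hg19 and mm10 are named in the submitters' processing notes. Which counter, annotation and scaling the authors used is not given in the sources used here. The unit of the deposited tables is a normalized signal for each gene. Within a library, 100% of values were whole multiples of 1 step (tolerance 0.01 read), from which whole reads were recovered. Values were analysed as log2(value + 1) with limma 3.58.1 (1 mean per group, eBayes with trend) in R 4.3.3, on genes reaching 1 in 4 or more libraries, with Benjamini-Hochberg adjustment over the 17663 genes and a threshold of 0.05. The steps were tested on simulated data. The alternatives were edgeR 4.0.16, DESeq2 1.42.0 and limma-voom run on those reads, other filters, pseudocounts and scalings, and fits that leave out libraries.

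The members and lists were chosen with earlier results of these data known. Library values are given for the 6 members with the smallest p in each comparison with vehicle and in the interaction, and the 2 genes with the smallest p in nintedanib against vehicle are named for each other human list, except 1 that is not reported here. Counts at an unadjusted p were added after the adjusted results were seen. Genes were matched by symbol, and coordinates and sequences are not used here.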

Additional observations from a re-analysis of the deposited data

Results flagged for a closer look

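SCEL stood at 88.3 in vehicle 2, while the other vehicle libraries lay between 26.7 and 34.0. The gap to the nearest library took a share of 0.882 of the group's range, above the critical value of 0.829 for 4 samples. Of 48 groups of 4 examined (11 members and the mean over all members, in 4 treatment groups) this was the 1 that exceeded it, and chance flags about 1 in 20 groups.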

How the results depend on the processing

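The numbers of members called were 4 with a replicate block, 10 with only the groups compared, 8 with DESeq2 and 1 without the 2 muscle-rich libraries for nintedanib against vehicle, where limma gave 0. For the interaction they were 2 with a replicate block and 3 with DESeq2, and for the averaged nintedanib effect 1 with DESeq2. Leaving out 1 library gave 0 to 2 calls for nintedanib and 0 to 3 for the interaction, and 0 in the other 6 comparisons. The number of tested genes, libraries or the model differs between these settings, and the cause was not tested. The labels do not say what a shared replicate number means. Of 24 same-numbered pairs, 2 had deviations from the group means correlated above 0.1. Their median correlation was 0.027, beside 0.0068 over 72 other pairs, and 6 of 16 libraries correlated best with their own number. These weak correlations do not decide whether the numbers pair the libraries. The median interaction was -0.48 without the muscle-rich libraries, and -0.97 to -0.54 with 1 library left out. Leave-one-out medians ran from 0.47 to 0.82 for nintedanib, 0.23 to 0.54 for alpelisib and 0.041 to 0.33 for the combination. For the 8 comparisons no other setting moved the median by more than the spread of the member score within groups (SD 0.27).

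At an unadjusted p under 0.05, the 1 member lower with nintedanib became 0 with a value of at least 10, limma without trend, edgeR, DESeq2, limma-voom or no muscle-rich libraries (0 to 1 with 1 library left out). Members higher with alpelisib numbered 8 without trend and 8 with the mouse skin score as covariate (7 to 17 with 1 library left out), and 1 was lower with that covariate (0 to 1). Members higher with the combination numbered 7 with edgeR, 7 with DESeq2 and 8 without the muscle-rich libraries (2 to 7 with 1 left out), and those lower were 0 without trend or with the skin covariate (0 to 2). The interaction count ran from 13 to 19. Members lower with the combination numbered 7 against nintedanib with human plus mouse scaling or without trend. Against alpelisib they numbered 8 with a replicate block and 3 without trend, with the skin covariate or without the muscle-rich libraries. Those higher for the averaged nintedanib effect numbered 8 with a replicate block. Signs turned for ALOX12B with the combination under quantile normalization (-0.083) and without the muscle-rich libraries (-0.025). With 1 library left out, ALOX12B ran from -0.13 to 0.41 and CNFN from -0.048 to 0.51 in that comparison, CALML3 from -0.018 to 0.22 with alpelisib, and CSTA from -0.48 to 0.031 in the interaction.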

Other observations

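The combination libraries did not carry the members in 1 common proportion. CRCT1 stood at 2463 and 1944 in combination 2 and 3 and at 439 and 555 in combination 1 and 4. CDSN, LCE3D, LCE3E and CNFN were likewise high in combination 2 and 3 and at the vehicle level in 1 and 4. Combination 4, low for those genes, had the highest combination value of SPINK5 (2963), SCEL (172), SBSN (918), FLG (2119), CSTA (12727) and PRDM1 (240), and the lowest of CALML3 (1330) and TGM1 (214). Its DSC1 value was 68.7, and that of combination 3 was 85.9, beside 10.2 to 30.2 with vehicle. These genes were picked after their values were seen, and the labels give no further difference between the 4 combination libraries.

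Alpelisib 4 also differed from its group. SBSN stood at 180 and PRDM1 at 55.5 there, each the lowest of all 16 libraries, while SCEL (135) and CRNN (257) were within or above the range of the other alpelisib libraries. Its mouse skin score was -0.48, the lowest of all libraries. Without alpelisib 4, 17 members were higher with alpelisib at an unadjusted p under 0.05.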
